A study of Homo sapiens with 10 samples.

Results

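KLF10 and 9 other Krueppel-like factors were followed in MRC5 cells, a human lung fibroblast line, given medium conditioned by A549 cells, a cancer line often used to stand in for human alveolar epithelial cells. The 10 genes (KLF10, KLF11, KLF9, KLF13, KLF16, KLF2, KLF4, KLF5, KLF6 and KLF7) were taken by symbol from a table of 14054 genes, and all 10 were present and passed the filter on low counts that left 10968 genes. They were chosen with the stretch comparison known, in which KLF10 was lower, so their differences between media are a description. Where calls from the fit over all genes are counted among them, the count over all genes stands beside and nothing is read from it. In the static group (5 libraries, numbered 1, 3, 5, 7 and 9) the medium came from non-stretched A549 cells, and in the stretch group (5 libraries, numbered 2, 4, 6, 8 and 10) from mechanically stretched A549 cells. All libraries share the MRC5 line and exposure to A549 medium, and no group with fresh medium was analysed here. The labels disagree on the time, with 24 hours in the sample descriptions and 6 hours in the design text. Both cell types are single established lines, and nothing in the labels says whether replicates are separate cultures, so p-values measure only the spread between these libraries, which may be technical. The series asks whether factors secreted by stretched epithelial cells act on fibroblasts.

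Krueppel-like factors are transcription factors that bind GC-rich and CACCC sequences in promoters through zinc fingers at the carboxyl end of the protein. Some members mainly activate and others mainly repress, depending on the cofactors that their amino-terminal parts recruit. KLF10 was first described as a TGF-beta inducible early gene, and in mesenchymal cells it represses SMAD7, an inhibitor of TGF-beta signalling. KLF2, KLF4 and KLF6 respond within a short time to serum, flow or injury, and KLF9 is a target of the glucocorticoid receptor.

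KLF10 and KLF7 were the members whose groups did not overlap, and both were lower with stretch medium. KLF7 promoter sequence is shown for that reason, and that of KLF6, the member with the largest positive difference, beside it. The bases are RefSeq's for GRCh38.p14, written 5′ to 3′ on the gene's strand and restricted to bases upstream of every GENCODE 29 start of the gene. RefSeq's own bounds of KLF7 extend past this stretch, so it may lie within a longer transcript. KLF7 is read from chr2:207167268-207167496 and KLF6 from chr10:3785282-3785459, both on the minus strand. Capitals mark the GC box GGGCGG and the CACCC core, each searched on both strands (GGGCGG or its reverse complement, CACCC or its reverse complement), which can overlap each other.
KLF7: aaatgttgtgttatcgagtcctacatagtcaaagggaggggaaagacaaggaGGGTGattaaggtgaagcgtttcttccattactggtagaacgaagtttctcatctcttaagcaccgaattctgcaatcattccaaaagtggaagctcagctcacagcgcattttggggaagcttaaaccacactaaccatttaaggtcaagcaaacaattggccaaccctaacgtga
KLF6: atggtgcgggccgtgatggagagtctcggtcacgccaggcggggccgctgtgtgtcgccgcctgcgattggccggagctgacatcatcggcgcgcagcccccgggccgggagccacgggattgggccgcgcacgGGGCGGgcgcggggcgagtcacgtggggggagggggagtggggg
The KLF7 stretch of 229 bases held 0 GC boxes and 1 CACCC core and was 43.2% G or C. The KLF6 stretch of 178 bases held 1 GC box and 0 CACCC cores and was 76.4% G or C. Both stretches are parts of longer windows, and KLF7 has other RefSeq windows: 1 of its 4 windows (chr2:207166807-207167106) held 4 GC boxes and the other 3 held 0, beside 2 in the whole window of KLF6. Over whole promoter windows of 300 bases, at least 1 GC box stood in 9 of 14 windows of 9 members (all but KLF10, for which no window was used here), beside 45.0% of 35116 RefSeq windows, and a CACCC core in 7 of 14, beside 59.9%. The cAMP response element TGACGTCA stood in 1 member window, of KLF11, beside 1.85% of all windows, and the E-box CACGTG in 4 of 14, beside 7.26%. The element TGATGNAA of C/EBP-ATF factors stood in 1 window, of KLF7, beside 3.62% of all windows, and TATAAA in 1, of KLF5, beside 11.5%. KLF9 had none of these letters in its window. These matches describe sequence and no binding was measured.

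**Figure D1:**
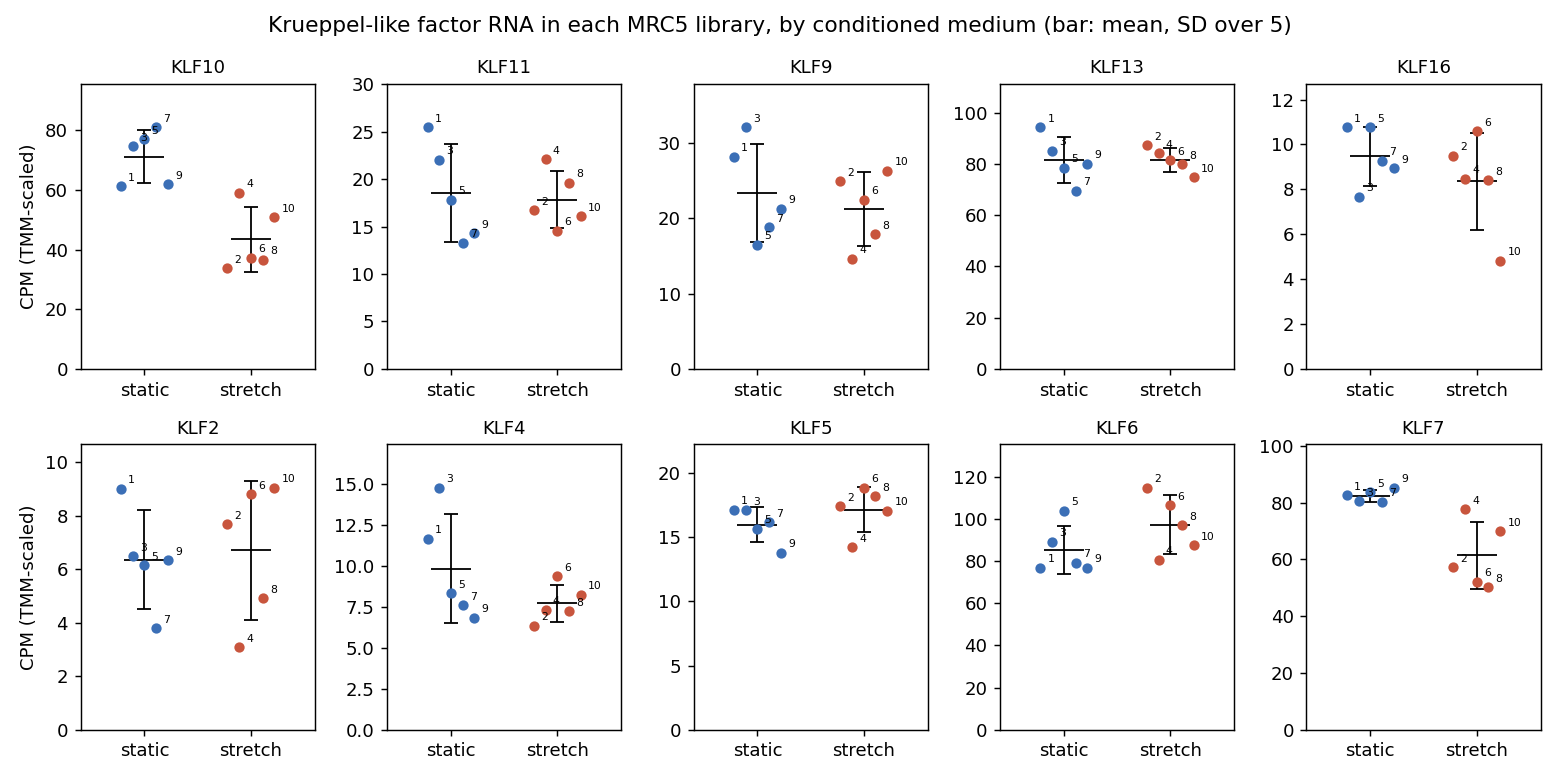
RNA level of each of the 10 factors in CPM (vertical axis, from 0) in each library, with static medium in blue and stretch medium in red. Points are libraries with their title number, and the bar is the mean with its SD over 5 libraries. The groups are apart for KLF10 and KLF7 and overlap for the other 8.

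KLF10 RNA was lower in every library with stretch medium than in every library with static medium. Levels are given in CPM, the counts of a gene relative to the library total after TMM scaling. KLF10 measured 61.3, 74.6, 77.0, 81.1 and 62.0 CPM in static 1, 3, 5, 7 and 9, and 33.7, 59.1, 37.3, 36.6 and 50.8 CPM in stretch 2, 4, 6, 8 and 10. Stretch 4 and stretch 10 lay nearest to the static libraries, and 2.24 CPM separated stretch 4 from static 1. KLF10 (chromosome 8, 102648779 to 102655902) averaged 71.2 ± 9.01 CPM in the static group and 43.5 ± 10.9 CPM in the stretch group (SD, n = 5 each). The log2 fold change, stretch minus static, was -0.72 ± 0.16 (95% interval -1.04 to -0.39), or 0.609 times the static level with an interval of 0.485 to 0.765. It rested on 149 to 633 counts per library. In bulk RNA, fewer cells that express a gene and less RNA per cell cannot be told apart.

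KLF11 is the closest relative of KLF10 in the family and also represses through the SIN3A corepressor. KLF11 measured 25.5, 22.1, 17.8, 13.3 and 14.3 CPM in static 1, 3, 5, 7 and 9, and 16.7, 22.1, 14.6, 19.6 and 16.1 CPM in stretch 2, 4, 6, 8 and 10. Both groups covered much the same range, with static 1 highest and static 7 lowest of the 10. The log2 fold change was -0.053 ± 0.19 (95% interval -0.45 to 0.34). With static 1, static 3 or stretch 6 left out, its sign turned, to at most 0.075. The interval allows a level from 0.732 to 1.27 times that with static medium. KLF11 lies on chromosome 2, 10042849 to 10054836.

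KLF9, KLF13 and KLF16 belong to the same repressor branch as KLF10 and KLF11, and none separated the groups. KLF9 (chromosome 9, 70384597 to 70414624), the glucocorticoid-responsive member, measured 28.1, 32.1, 16.5, 18.8 and 21.3 CPM in the static libraries and 24.9, 14.6, 22.4, 17.8 and 26.3 CPM in the stretch libraries. Its 2 highest values were static 3 and static 1, while static 5 lay below all but 1 stretch library. Its log2 fold change was -0.14 ± 0.20 (95% interval -0.57 to 0.28), and without static 3 it was 0.0059. KLF13 (chromosome 15, 31326855 to 31435665), known as a regulator of the chemokine gene CCL5 in lymphocytes, measured 94.3, 85.1, 78.4, 69.4 and 80.0 CPM in the static libraries and 87.3, 84.1, 81.4, 79.9 and 74.7 CPM in the stretch libraries. The stretch libraries lay inside the static range, and the log2 fold change was 0.0019 ± 0.11 (95% interval -0.22 to 0.23), which bounds the level between 0.857 and 1.17 times that with static medium. KLF16 (chromosome 19, 1852399 to 1863568), a small member of this branch, measured 10.8, 7.66, 10.8, 9.27 and 8.93 CPM in the static libraries and 9.50, 8.47, 10.6, 8.40 and 4.82 CPM in the stretch libraries. Only stretch 10 lay below all static libraries. The log2 fold change was -0.17 ± 0.20 (95% interval -0.59 to 0.25), and without stretch 10 it was -0.029.

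KLF2 and KLF4, which are induced by flow in endothelium through the ERK5 and MEF2 pathway, were at low counts in these fibroblasts, from 16 to 64 counts per library for KLF2 and from 28 to 125 for KLF4. KLF2 (chromosome 19, 16324817 to 16327874) measured 9.01, 6.49, 6.15, 3.79 and 6.33 CPM in the static libraries and 7.69, 3.08, 8.80, 4.91 and 9.04 CPM in the stretch libraries. Stretch 4 was the lowest of the 10 and stretch 10 the highest. Its log2 fold change was 0.094 ± 0.28 (95% interval -0.50 to 0.69), the widest interval of the 10 factors, and without static 7, stretch 6 or stretch 10 its sign turned. KLF4 (chromosome 9, 107484852 to 107490482), a pluripotency factor that in smooth muscle represses contractile genes, measured 11.6, 14.7, 8.30, 7.57 and 6.82 CPM in the static libraries and 6.34, 7.31, 9.36, 7.24 and 8.24 CPM in the stretch libraries. Static 3 and static 1 were above every stretch library, and the other static libraries lay inside the stretch range. The log2 fold change was -0.35 ± 0.22 (95% interval -0.81 to 0.12), and without static 3 it was -0.14. GENCODE 29 lists 4 processed pseudogenes of KLF2 and 1 each of KLF4 and KLF7. They were not analysed here, and whether reads were shared with them was not tested.

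KLF5 and KLF6, activators linked to smooth muscle and fibroblast growth and to injury, had means that were higher with stretch medium and groups that overlapped. KLF5 (chromosome 13, 73054976 to 73077542) measured 17.1, 17.1, 15.7, 16.2 and 13.8 CPM in the static libraries and 17.4, 14.2, 18.8, 18.2 and 17.1 CPM in the stretch libraries. The highest were stretch 6, 8 and 2, and stretch 4 was second lowest after static 9. Its log2 fold change was 0.11 ± 0.14 (95% interval -0.18 to 0.39). KLF6 measured 76.9, 89.1, 104, 79.2 and 76.9 CPM in static 1, 3, 5, 7 and 9, and 115, 80.6, 107, 97.1 and 87.4 CPM in stretch 2, 4, 6, 8 and 10. Stretch 2 and stretch 6 lay above all static libraries, static 5 came next, and stretch 4 lay among the lower static values. For KLF6 (chromosome 10, 3775996 to 3785281) the log2 fold change was 0.19 ± 0.12 (95% interval -0.071 to 0.45), or 1.14 times the static level with an interval of 0.952 to 1.37.

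KLF7, a factor known from axon growth and fat cell precursors, was lower with stretch medium in every library. KLF7 measured 82.6, 80.5, 83.6, 80.4 and 85.2 CPM in static 1, 3, 5, 7 and 9, and 57.2, 77.7, 52.1, 50.1 and 69.9 CPM in stretch 2, 4, 6, 8 and 10. The static libraries lay close together, from 80.4 to 85.2 CPM, and the stretch libraries spread from 50.1 to 77.7 CPM, with stretch 4 and stretch 10 again nearest to the static values. KLF7 (chromosome 2, 207074137 to 207167267) averaged 82.5 ± 2.06 CPM in the static group and 61.4 ± 11.9 CPM in the stretch group (SD, n = 5 each). The SD was 2.50% of the mean with static and 19.4% with stretch medium, where counting alone gives 4.71% at its mean count. The log2 fold change was -0.43 ± 0.13 (95% interval -0.69 to -0.16), or 0.743 times the static level with an interval of 0.618 to 0.894.

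**Figure D2:**
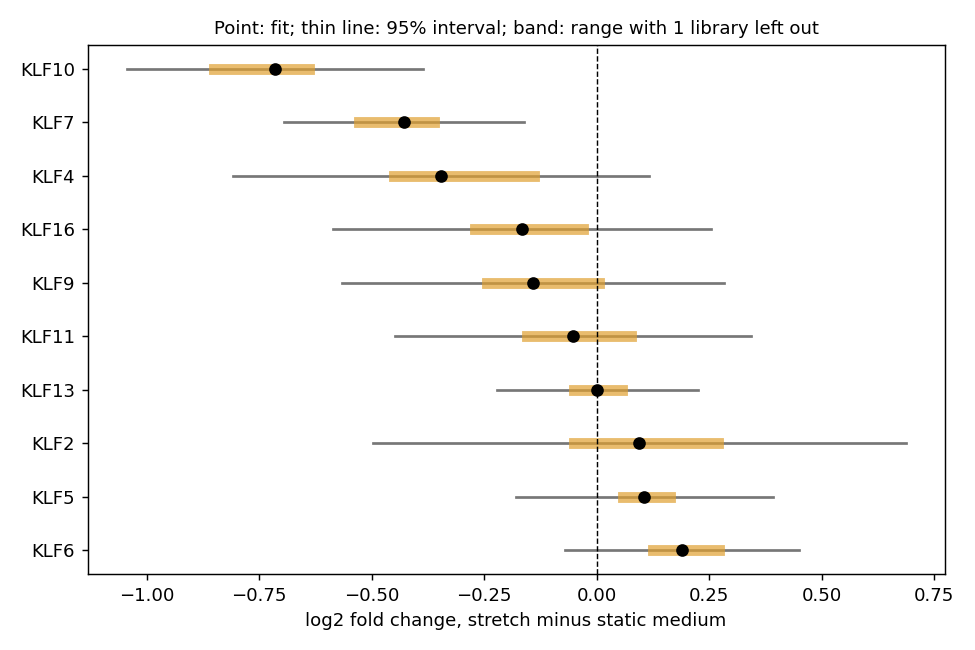
Log2 fold change of each factor, stretch minus static medium (horizontal axis, dashed line at 0). Points are fitted values, thin lines are 95% intervals and bands span the values with 1 of the 10 libraries left out. The intervals of KLF10 and KLF7 lie below 0 and those of the other 8 span 0.

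Over the 10 factors, 6 log2 fold changes were below 0 and 4 above, with a median of -0.097. Over all 10968 genes tested, 5478 were below 0 and the median was 0.00035. In edgeR's quasi-likelihood test with Benjamini-Hochberg adjustment, 0 of the 10 passed an adjusted p of 0.05, as did 0% of all genes tested. At an unadjusted p under 0.05 there were 2 of the 10, KLF10 and KLF7, both lower, beside 8.37% of all genes lower at that level, and 0 of the 10 were higher, beside 8.08%. The groups did not overlap, with stretch lower, for the same 2, beside 1.98% of all genes, and with stretch higher for 0, beside 1.74%. DESeq2 called both, beside 1.37% of all genes called lower, and limma-voom called 0 of the 10, beside 0.00912% of all genes in either direction. With stretch 4 left out, edgeR called KLF10, beside 0.298% of all genes called lower. Since the factors were chosen on this contrast, nothing is read from these counts. With 1 library left out, the log2 fold changes of KLF10 ranged from -0.85 without stretch 4 to -0.64 without stretch 2, and those of KLF7 from -0.53 without stretch 4 to -0.36 without stretch 8.

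Precision differed between the factors. Counting alone gives a relative error of 4.17% at the mean count of KLF6 and 15.8% at that of KLF2. The fitted biological coefficient of variation, the spread between libraries beyond counting, was 12.4% for KLF13, 13.5% for KLF5, 14.3% for KLF6 and 14.4% for KLF7, below the median of 16.7% over all genes. It was above that median for the other 6, at 17.3% for KLF10, 18.7% for KLF16, 19.9% for KLF11, 21.8% for KLF9 and 22.1% for KLF4. It was highest, 27.7%, for KLF2, so a small difference in KLF2 was not detectable with this spread and these counts.

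Deviations from the group means, which the choice of the factors did not use, were compared over the 10 libraries on the log2 CPM scale. KLF7 was the factor most like KLF10, with Pearson r = 0.77 and Spearman rho = 0.66, and it ranked 157 among 8157 genes with a mean of at least 10 CPM. This likeness rested on 2 libraries. Stretch 4 lay 0.47 above the group mean for KLF10 and 0.36 above it for KLF7, and stretch 10 lay 0.26 and 0.21 above. Without stretch 4 and stretch 10, the libraries farthest from the median of KLF10 deviations, r was -0.50 over 8 libraries. For KLF6, r was -0.44 over 10 libraries and 0.41 over those 8. The sign of r differed between the groups. For KLF7 with KLF10 it was -0.63 in the static group and 0.92 in the stretch group. For KLF6 with KLF10 it was 0.56 in the static group and -0.95 in the stretch group. KLF11 had an r of 0.081 with KLF10 and KLF4 of 0.050. Deviations of KLF10 had an r of 0.087 with those of the log2 library total, and those of KLF7 an r of -0.49. These are descriptions, and values in 1 library share its depth and scaling.

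**Figure D3:**
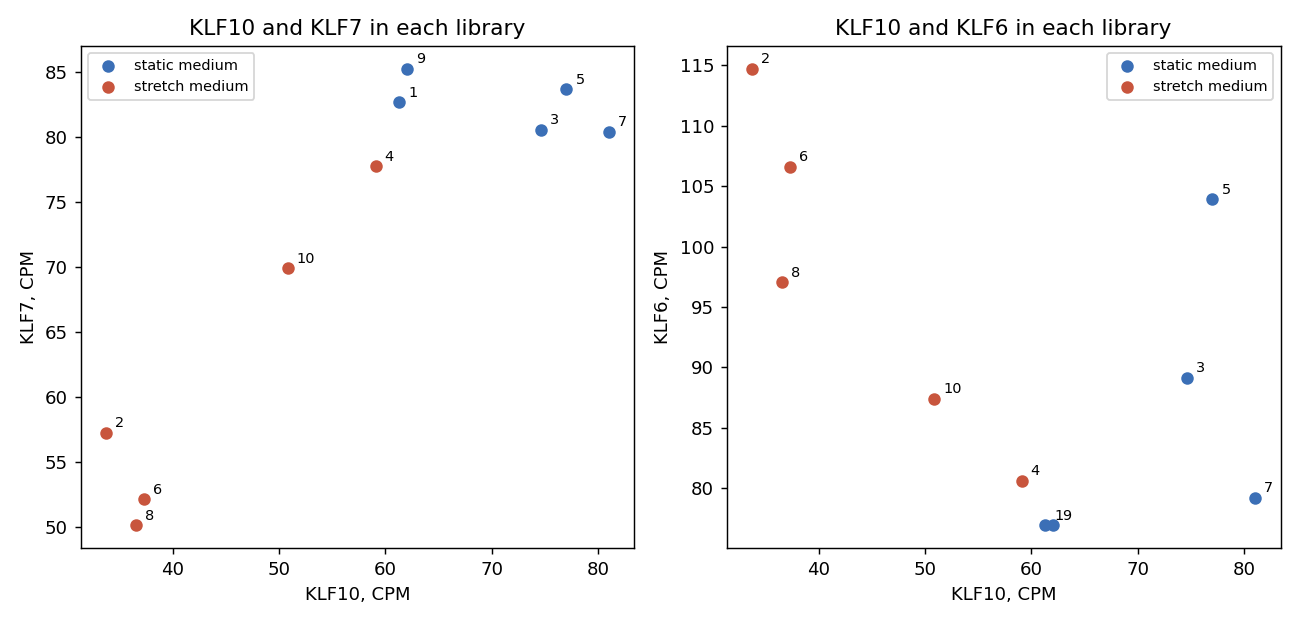
Level of KLF7 (left) and of KLF6 (right) against KLF10 in each library, all in CPM, with static medium in blue and stretch medium in red, and points labelled by title number. Axes do not start at 0. On the left, stretch 4 and stretch 10 lie between the other stretch libraries and the static libraries for both genes.

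Among all 45 pairs of the 10 factors, r of these deviations ran from -0.75 (KLF5 with KLF7) to 0.77 (KLF10 with KLF7), with a median of 0.079 and 27 pairs above 0. KLF9 with KLF2 (r = 0.76) and KLF11 with KLF13 (r = 0.75) came next to the highest.

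**Figure D4:**
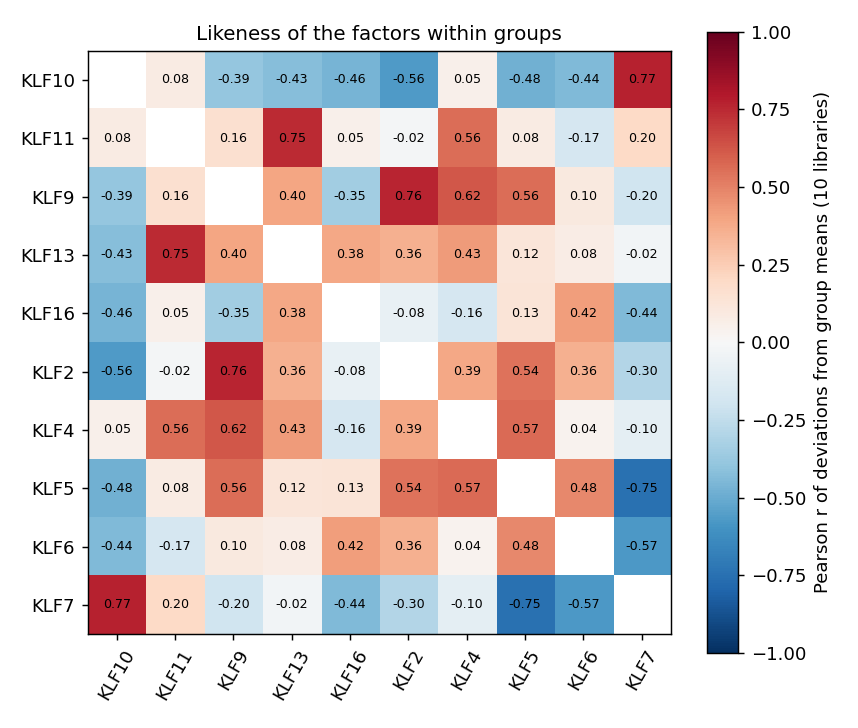
Pearson r between each pair of factors over 10 libraries, computed on deviations of log2 CPM from the group mean, from -1 (blue) to 1 (red). The highest cell is KLF10 with KLF7 at 0.77 and the lowest KLF5 with KLF7 at -0.75.

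The 5 genes most like KLF10 by this measure were COMMD2 (r = 0.96, rho = 0.89), the RNA-binding protein gene LARP4B (r = 0.94, rho = 0.98), RER1 (r = 0.93, rho = 0.88), which encodes a retrieval receptor between Golgi and endoplasmic reticulum, GCLC (r = 0.92, rho = 0.83), the catalytic subunit of the enzyme that starts glutathione synthesis, and the splicing factor gene SF1 (r = 0.92, rho = 0.95). Without stretch 4 and stretch 10, r was 0.93 for COMMD2, 0.79 for LARP4B, 0.81 for RER1, 0.79 for GCLC and 0.69 for SF1. The 3 least like were ASAP3 (r = -0.98, rho = -0.98), ANGEL1 (r = -0.93, rho = -0.95) and FAM210B (r = -0.93, rho = -0.88). Over the 8157 genes, r ran from -0.98 to 0.96, with quartiles of -0.32 and 0.32. RER1 overlaps PEX10 on the opposite strand, and the use of strand in counting is not given in the sources used here.

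Of the remaining KLF and SP family, 5 genes were tested (KLF3, KLF12, SP1, SP2 and SP4), and 0 passed an adjusted p of 0.05 in edgeR. At an unadjusted p under 0.05, 1 was higher, SP2, beside 8.08% of all genes, and 0 were lower, beside 8.37%. KLF12, a repressor that recruits CTBP1, measured 42.4, 42.3, 41.0, 41.5 and 51.1 CPM in the static libraries and 36.9, 39.5, 35.9, 40.6 and 40.4 CPM in the stretch libraries. Its groups did not overlap, by a narrow gap, as with stretch lower in 1.98% of all genes. The log2 fold change of KLF12 was -0.18 ± 0.11 (95% interval -0.41 to 0.057). KLF3, another CTBP-recruiting repressor, was at 179.9 ± 33.9 CPM in the static group and 170.4 ± 32.0 CPM in the stretch group (SD, n = 5 each), a log2 fold change of -0.079 ± 0.14 (95% interval -0.38 to 0.22). SP1, the founding GC box factor, was at -0.07 ± 0.11 (95% interval -0.30 to 0.16) and SP2 at 0.35 ± 0.15 (95% interval 0.023 to 0.67) with adjusted p = 0.276 in edgeR. KLF12 and SP2 were named after their values were seen.

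The pathways around these factors were described with 7 lists of 116 entries and 112 distinct genes, of which 84 were tested. In edgeR 0 of the 84 passed an adjusted p of 0.05, and at an unadjusted p under 0.05 there were 5 lower and 8 higher, or 15.5%, beside 16.4% of all genes. DESeq2 called 3 of them, MAP2K5 and EP300 included, beside 2.51% of all genes. Counts near the background are no result about the lists.

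Upstream of KLF2 and KLF4, 10 genes of the ERK5 and MEF2 pathway were tested, with 3 log2 fold changes below 0, 7 above and a median of 0.097. By unadjusted p under 0.05, 1 was lower, beside 8.37% of all genes, and 1 higher, beside 8.08%. MAP2K5 (chromosome 15, 67542709 to 67807123) encodes MEK5, the kinase that activates ERK5. MAP2K5 measured 13.0, 15.1, 17.1, 18.1 and 18.3 CPM in static 1, 3, 5, 7 and 9, and 7.47, 11.9, 7.15, 11.2 and 8.04 CPM in stretch 2, 4, 6, 8 and 10. The groups did not overlap, with stretch 4 nearest to static 1. MAP2K5 was named by a rule that required such separation, which 1.98% of all genes showed with stretch lower. Its log2 fold change was -0.83 ± 0.18 (95% interval -1.21 to -0.45), with adjusted p = 0.0903 in edgeR. DESeq2 gave an adjusted p of 0.00563, and edgeR without stretch 4 gave 0.0413. MAPK7, which encodes ERK5 itself, measured 26.2, 21.3, 27.2, 20.4 and 22.7 CPM in the static libraries and 38.2, 33.7, 30.4, 26.1 and 28.7 CPM in the stretch libraries. All but 1 stretch library lay above every static library, and the log2 fold change was 0.42 ± 0.14 (95% interval 0.12 to 0.71) with adjusted p = 0.169 in edgeR. MAPK7 was named after its values were seen.

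Among 20 cofactors and ubiquitin ligases of Krueppel-like factors, 11 log2 fold changes were below 0 and 9 above, with a median of -0.017. By unadjusted p under 0.05, 2 were higher, beside 8.08% of all genes, and 0 lower, beside 8.37%. The 2 higher were EP300, an acetyltransferase, and SAP30, a SIN3 complex subunit. EP300 measured 33.4, 44.8, 30.3, 30.2 and 30.4 CPM in the static libraries and 42.8, 69.3, 46.5, 44.7 and 51.6 CPM in the stretch libraries. Static 3 lay inside the stretch range and the other static libraries below it. The log2 fold change was 0.59 ± 0.16 (95% interval 0.26 to 0.92) with adjusted p = 0.117 in edgeR and 0.0242 in DESeq2. SAP30 was at 0.49 ± 0.20 (95% interval 0.062 to 0.92) with adjusted p = 0.250 in edgeR. EP300 and SAP30 were named after their values were seen.

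Of 12 early SMAD targets, the group to which KLF10 is usually counted, 8 were below 0 and 4 above, with a median of -0.12. JUNB alone was lower at an unadjusted p under 0.05, at -0.24 ± 0.11 (95% interval -0.47 to -0.0074) with adjusted p = 0.289 in edgeR, and 0 were higher. Among all genes, 8.37% were lower and 8.08% higher at that level. SMAD7, which KLF10 represses, was at 52.1 ± 11.6 CPM in the static group and 53.4 ± 8.40 CPM in the stretch group (SD, n = 5 each), a log2 fold change of 0.038 ± 0.15 (95% interval -0.29 to 0.36). JUNB and SMAD7 were named after their values were seen.

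Of 12 glucocorticoid-responsive genes, the group of KLF9, 6 were below 0 and 6 above, with a median of -0.023. The metallothionein gene MT1X was lower at an unadjusted p under 0.05, at -0.44 ± 0.18 (95% interval -0.82 to -0.06), and the repressor BCL6 higher, at 0.44 ± 0.18 (95% interval 0.06 to 0.81), each with adjusted p = 0.246 in edgeR. Among all genes, 8.37% were lower and 8.08% higher at that unadjusted level. MT1X has close relatives in the metallothionein family, so its count is uncertain. MT1X and BCL6 were named after their values were seen.

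Of 14 genes of the circadian clock, whose activators drive KLF10 in liver, 10 were below 0 and 4 above, with a median of -0.12. The partner activators CLOCK and BMAL1 were lower at an unadjusted p under 0.05, beside 8.37% of all genes, and 0 were higher, beside 8.08%. CLOCK (chromosome 4, 55427903 to 55547138) measured 57.8, 61.1, 70.7, 64.9 and 82.3 CPM in the static libraries and 56.1, 57.0, 55.2, 53.8 and 57.1 CPM in the stretch libraries. The groups did not overlap, with static 1 less than 1 CPM above stretch 10. CLOCK was named by a rule that required such separation, which 1.98% of all genes showed with stretch lower. Its log2 fold change was -0.27 ± 0.11 (95% interval -0.51 to -0.031) with adjusted p = 0.258 in edgeR. CLOCK overlaps TMEM165 on the opposite strand. BMAL1 was at -0.44 ± 0.20 (95% interval -0.85 to -0.023) with adjusted p = 0.280 in edgeR, and was named after its values were seen.

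Of 14 target genes reported for Krueppel-like factors, 5 were below 0 and 9 above, with a median of 0.095. At an unadjusted p under 0.05, 3 were higher, beside 8.08% of all genes, and 0 lower, beside 8.37%. The lists were chosen with earlier results of these data known, so nothing is read from these counts. The contractile genes TAGLN and ACTA2 were among the 3. TAGLN was at 0.54 ± 0.20 (95% interval 0.12 to 0.97) with adjusted p = 0.208 and ACTA2 at 0.32 ± 0.13 (95% interval 0.046 to 0.60) with adjusted p = 0.244 in edgeR. ACTA2 overlaps FAS and STAMBPL1 in the annotation. TAGLN and ACTA2 were named after their values were seen.

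**Figure D5:**
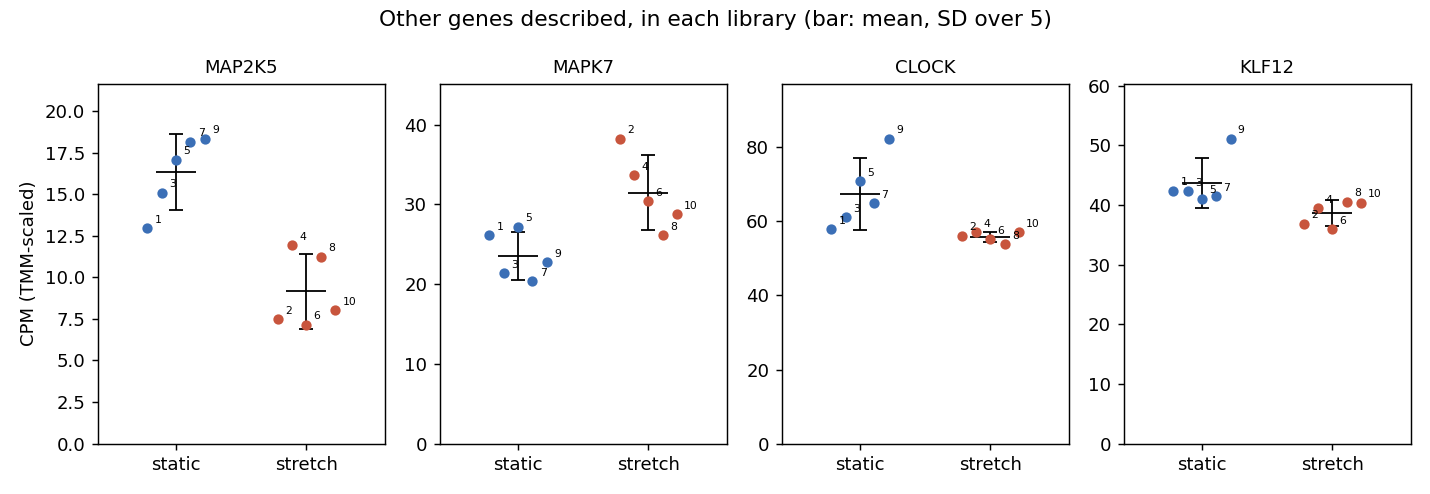
Level of MAP2K5, MAPK7, CLOCK and KLF12 in CPM (vertical axis, from 0) in each library, with static medium in blue and stretch medium in red. Points carry the title number, and the bar is the mean with its SD over 5 libraries. The groups are apart for MAP2K5, CLOCK and KLF12, and stretch 8 lies inside the static range for MAPK7.

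Library totals ran from 4231653 to 8455073 counts, and a floor of 3 counts corresponded to 0.354 to 0.679 CPM. The group means of the totals, 6675921 ± 1494760 (static) and 5948227 ± 1544115 (stretch, SD, n = 5 each), differed by less than the spread (two-sided p = 0.444 in an exact permutation test). Of 10 fibroblast markers all 10 were tested, and their summed level was 14337 to 16313 CPM with static and 12465 to 16351 CPM with stretch medium. Of these, 4 log2 fold changes were below 0 and 6 above. VIM ran from 4057 to 5073 CPM with static and from 1580 to 4328 CPM with stretch medium, and TBX4 was at only 1.68 to 4.61 CPM. Of 12 epithelial markers, 7 were in the table, with summed levels of 36.2 to 48.1 and 41.9 to 52.0 CPM. CDH1, the cadherin of epithelium, was at 0 in 5 libraries, while EPCAM, KRT8, KRT18, KRT19, MUC1 and CLDN4 were above 0 in every library. Of 7 endothelial markers, 4 were in the table, with 53.7 to 65.9 and 48.4 to 68.2 CPM, mostly TEK. VWF was at 0 in 5 libraries, while PECAM1, KDR and TEK were above 0 in every library. Of 5 immune markers, 2 were in the table, with 194 to 208 and 182 to 232 CPM, nearly all CD68. The part of other cells in the results was not tested.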

How the data were processed

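RNA of 10 libraries was made with an AmpliSeq transcriptome kit, which amplifies short targets, per the labels' protocols. No molecular identifiers are mentioned, so counts are of amplified reads and intervals from counting cover counting error only. Levels depend on each target's amplification, so levels of different genes are not equivalent. The marker sums and the cut at a mean of 10 CPM used them as they were. The authors deposited unscaled counts, whole numbers for each Ensembl gene. The submitters' processing notes name fastp (0.20.1), Salmon (1.9) and hg38/GRCh38, while their roles, strand use and annotation were not given in the sources used here. Columns were matched to samples by the number in each title. Every gene in the table was above 0 in at least 5 libraries. Pairs of libraries within a group differed by more than counting noise (chi-square over degrees of freedom from 5.75 to 23.0 over 20 pairs). This bears only on whether 1 library appears under 2 names and not on whether they are separate cultures, and each was counted as labelled. Positions are whole genes from GENCODE 29 on GRCh38, and promoter windows are from RefSeq.

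Counts were filtered by filterByExpr (minimum count 10, minimum total 15), scaled by TMM and fitted with edgeR 4.0.16 in R 4.3.3 (quasi-likelihood test, stretch minus static, Benjamini-Hochberg over all 10968 genes, threshold 0.05). ± after a log2 fold change is its standard error. Log2 CPM used a prior count of 2. The members and lists were chosen with earlier results of these data known. From each list, up to 4 genes with an unadjusted p under 0.05 and no overlap of groups were named by rule, which gave MAP2K5 and CLOCK, and the 5 genes most and 3 least like KLF10. An item counted in the lists is not reported here. Alternatives were other scalings, no filter, 50 counts in 5 libraries, DESeq2 1.42.0, limma-voom 3.58.1, a threshold of 0.1, a prior count of 0.5 and each library left out. The permutation test ran over 252 arrangements.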

Additional observations from a re-analysis of the deposited data

How the results depend on the processing

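The log2 fold changes of KLF10, KLF7, KLF4, KLF16, KLF5 and KLF6 kept their sign in all 17 alternatives (scaling, filter, test or 1 library left out). KLF13 changed sign in 7 of 17, KLF2 in 3 of 16, KLF11 in 3 of 17 and KLF9 in 1 of 17. KLF2 had too few counts for the filter of 50 counts. No member moved by more than its spread between libraries. Genes called at an adjusted p of 0.05 numbered 0 in edgeR, 275 in DESeq2 and 1 in limma-voom, and 61 in edgeR at a threshold of 0.1. With 1 library left out they numbered 0 to 39: 39 without stretch 4, 2 without stretch 6 and 1 without stretch 10. DESeq2 called 2 members and 3 list genes, MAP2K5 and EP300 included. With 1 library left out, edgeR called 0 to 1 members and 0 to 1 list genes, and the list genes at an unadjusted p under 0.05 numbered 8 to 15, with 8 without stretch 6, beside 13 over all libraries. The cause was not tested. Of the 5 genes most like KLF10, 1 to 2 stayed among the first 5 with a library left out, and their r was at least 0.87. The groups share no title number and the labels pair no libraries, so no fit with a replicate block was run.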

Other observations

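Other family members were near or under the floor of 3 counts. Over the 10 libraries, KLF8 had 16 counts in all (0 to 5 per library), KLF15 had 8 (0 to 3), KLF17 had 36 (0 to 7) and SP3 had 21 (0 to 8), and they were not tested. Whether their levels differed between media was therefore not assessed.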
